A study of Mus musculus with 16 samples.

Results

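The genes described here are Tnfrsf12a, which encodes Fn14, with its ligand gene Tnfsf12 (TWEAK), and 6 relatives of the tumour necrosis factor family: the ligand gene Tnf and the receptor genes Tnfrsf1a, Tnfrsf1b, Fas, Tnfrsf10b and Tnfrsf21. They were chosen by name, by matching the deposited mouse Entrez identifiers to gene symbols, and make up 8 of 36528 identifiers. All 8 were found, and 7 passed the filter on low counts; Tnf did not.

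RNA of whole mouse retina was sequenced 3 days after injury of the optic nerve by crushing, a lesion of the axons of retinal ganglion cells. The mice received the DLK inhibitor GNE-3511 (DLKi, 75 mg/kg, given 60 and 68 h after the injury) or the vehicle MCT; DLK is a kinase that relays axonal injury to the JNK pathway. The 4 groups were crushed retina with DLKi (n = 5), crushed retina with vehicle (n = 3), uncrushed retina with DLKi (n = 5) and uncrushed retina with vehicle (n = 3). The labels give no strain, sex, age or transgene and do not tell which retinas came from the same mouse. The p-values therefore measure only the spread between these samples. 5 mice per drug are stated, and further vehicle retinas were not analysed here.

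Ligands of the TNF family are trimers, made as membrane proteins and often released by proteases, that cluster their receptors. Receptors such as Fn14 and TNFR2 bind TRAF adaptors directly, whereas TNFR1, Fas, DR5 and DR6 carry a death domain, through which several of them can either activate NF-kB and JNK or assemble caspase-activating complexes. Fn14 is kept low in many healthy tissues and is known as a gene induced by growth factors and injury, and members of the family have been studied in the death and survival of retinal ganglion cells.

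The libraries held 22.4 to 44.7 M counts. Markers of retina were present in every library, rhodopsin alone taking 3.08% to 4.29% of the counts. Of 15 ganglion cell markers, 11 fell after crush with DLKi (8 without the lens-rich libraries described below) and 9 with vehicle; the summed level was 1071 to 1299 CPM (counts scaled to library size) in crushed DLKi retina, 802 to 1148 CPM in crushed vehicle retina, 1587 to 2126 CPM in uncrushed DLKi retina and 1240 to 1772 CPM in uncrushed vehicle retina. In whole tissue, fewer cells of a type and less RNA per cell cannot be told apart. Lens markers, which belong to a neighbouring tissue, summed to 1.88 to 14.9 CPM in crushed libraries and up to 248 CPM in uncrushed ones, with the highest sums in uncrushed DLKi retinas 5 and 3 and uncrushed vehicle retina 2. The shallowest vehicle libraries were uncrushed retina 1 and crushed retina 3, and counts were also taken without that pair and without the 3 libraries richest in lens markers.

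Levels below are the authors' nRPKM, read counts divided by gene length and library size with a size factor per library, which allows genes to be compared per length. Changes are log2 fold changes ± SE with a 95% interval from edgeR's quasi-likelihood fit to the counts, and a gene was called when its p, adjusted by Benjamini-Hochberg over all 19391 genes tested, was at most 0.05. Tnfrsf12a and Tnfrsf1a rose after crush, with either drug. Tnfrsf12a was also lower in crushed DLKi retina than in crushed vehicle retina. No other tested gene of the set was called in any comparison. Thus 2 of the 7 tested genes of the set rose after crush with DLKi, where 5.33% of all tested genes were called (3.29% higher and 2.04% lower). With vehicle 2 of the 7 rose, where 2.63% were called (1.77% higher and 0.861% lower). Between the drugs, 1 of the 7 fell in crushed retina, where 0.505% of all tested genes were called (0.129% higher and 0.376% lower). None was called between the drugs in uncrushed retina, where 0.629% of tested genes were (0.263% higher and 0.366% lower), or for the difference of the crush effects, where 0.0103% were. Both without the shallowest vehicle pair and without the lens-rich libraries, 2 genes of the set were called for crush with DLKi, 1 for crush with vehicle and 0 between the drugs in crushed retina.

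**Figure D1:**
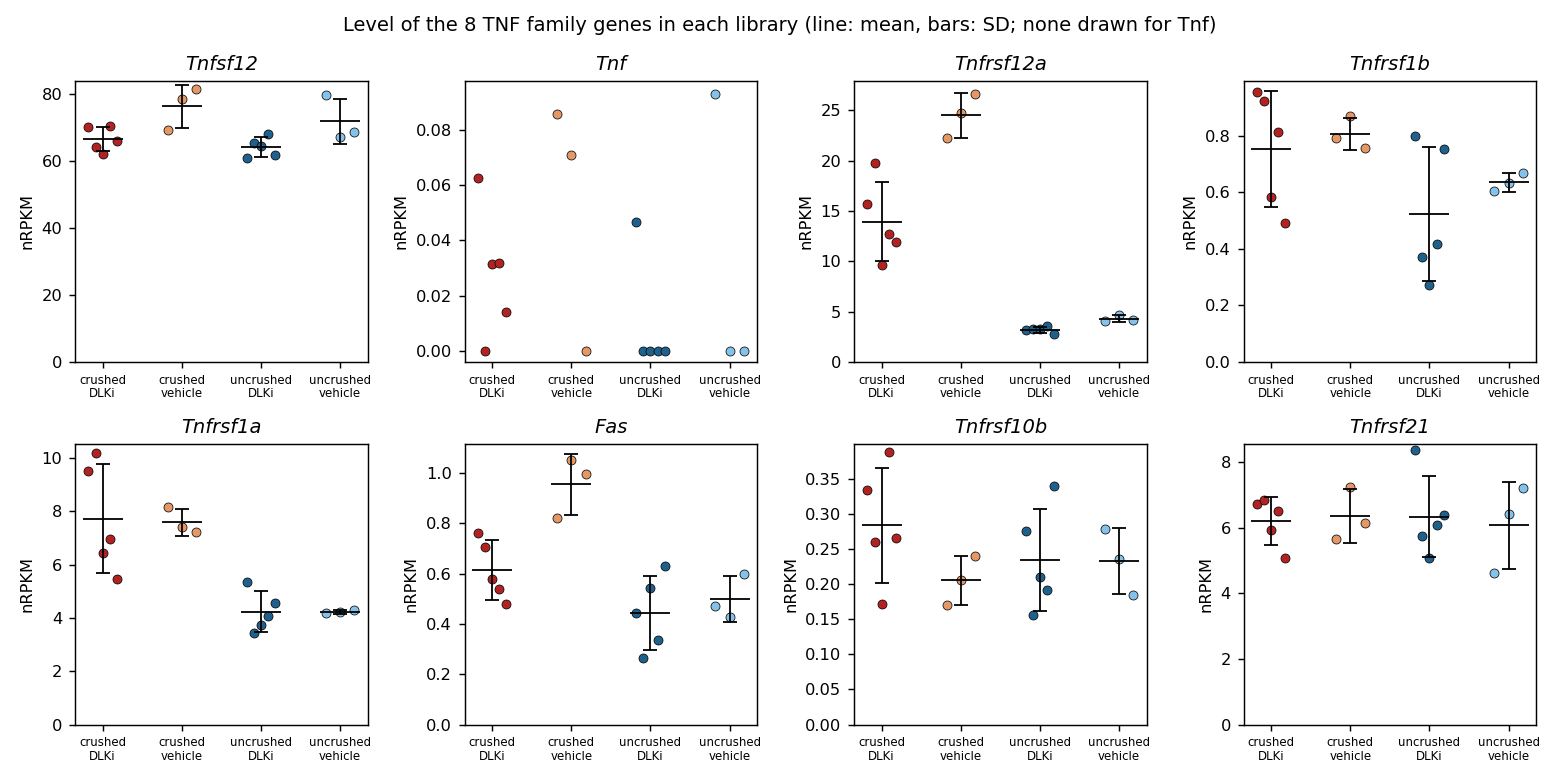
Level (nRPKM, linear axes) of each of the 8 genes in each library, by group; each point is a library, the long line is the mean and the bars the SD, drawn for all but Tnf, whose points rest on 0 to 5 reads. Tnfrsf12a stands at 9.63 to 19.8 in crushed DLKi retina and 22.2 to 26.6 in crushed vehicle retina, against 2.77 to 4.69 in all uncrushed retinas.

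Tnfrsf12a (Entrez 27279) lies on chromosome 17 at 23675445 to 23677449 of GRCm38, on the minus strand, and no other annotated gene overlaps its exons. The 250 bases before the start of the gene in the RefSeq promoter table of GRCm38.p6 are shown with those of Tnfrsf1a and Fas, the other receptors with the largest crush effects with vehicle, each 5′ to 3′ on the strand of the gene. Positions are chr17:23677450-23677699 (minus strand) for Tnfrsf12a, chr6:125349473-125349722 (plus strand) for Tnfrsf1a and chr19:34290409-34290658 (plus strand) for Fas, where the start in that table lies downstream of the gene start given below, so that the window reaches into the gene. Capitals mark matches on either strand to a kappaB motif (GGG, any 5 bases, then CC), a GC box (GGGCGG) or an AP-1 motif (TGANTCA), some of which overlap each other.
Tnfrsf12a: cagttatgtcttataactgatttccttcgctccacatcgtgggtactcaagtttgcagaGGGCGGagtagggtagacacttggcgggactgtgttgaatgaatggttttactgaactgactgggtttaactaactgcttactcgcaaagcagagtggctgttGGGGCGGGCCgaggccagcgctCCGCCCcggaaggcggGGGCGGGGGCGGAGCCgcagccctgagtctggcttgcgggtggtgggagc
Tnfrsf1a: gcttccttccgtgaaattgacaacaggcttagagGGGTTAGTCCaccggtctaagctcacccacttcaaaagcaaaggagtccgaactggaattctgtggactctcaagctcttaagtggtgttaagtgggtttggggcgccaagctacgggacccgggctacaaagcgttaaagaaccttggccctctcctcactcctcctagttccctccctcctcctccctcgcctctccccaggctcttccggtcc
Fas: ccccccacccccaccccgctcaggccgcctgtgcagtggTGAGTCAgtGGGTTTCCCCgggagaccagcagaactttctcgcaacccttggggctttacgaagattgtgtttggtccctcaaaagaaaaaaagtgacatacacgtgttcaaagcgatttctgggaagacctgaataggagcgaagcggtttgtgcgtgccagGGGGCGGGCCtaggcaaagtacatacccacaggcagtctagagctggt
The Tnfrsf12a window held 5 GC boxes and 2 kappaB matches, both of which overlap a GC box, and no AP-1 match. That of Tnfrsf1a held 1 kappaB match, and that of Fas 1 AP-1 match, 2 kappaB matches and 1 GC box. Such letters are common: of 32851 promoter windows of the same length, 45.8% held the kappaB letters, 32.7% the GC box and 6.75% the AP-1 letters. The CRE motif TGACGTCA, present in 1.55% of windows, was in none of the 6 windows found for the set. The matches are a description of sequence and not of binding.

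Among the ligands, Tnfsf12 (Entrez 21944, chromosome 11 at 69686240 to 69696098, minus strand) had the highest level of the set. It stood at 70.2, 64.4, 62.3, 70.6 and 66 nRPKM in crushed DLKi retina and 69.3, 78.6 and 81.6 nRPKM in crushed vehicle retina. Uncrushed DLKi retina had 61.1, 65.6, 64.5, 68.2 and 62 nRPKM and uncrushed vehicle retina 79.7, 67.4 and 68.9 nRPKM. All 4 groups overlapped for this gene in each comparison. Its crush effect was 0.06 ± 0.06 with DLKi (−0.07 to 0.19, adjusted p = 0.819) and 0.09 ± 0.08 with vehicle (−0.08 to 0.26, adjusted p = 0.874), so the intervals reach at most a 1.2-fold rise. Between the drugs the change was −0.20 ± 0.07 in crushed retina (−0.35 to −0.05, adjusted p = 0.229) and −0.16 ± 0.07 in uncrushed retina (−0.31 to −0.02, adjusted p = 0.247). Its level is uncertain, because the read-through gene Tnfsfm13, which joins it to the neighbouring ligand gene Tnfsf13, shares 48.3% of its exon length on the same strand. Counts were 3514 to 5685 for Tnfsf12 and 3148 to 4561 for Tnfsfm13, and the read-through gene differed between the drugs in crushed retina by −0.16 ± 0.08 (adjusted p = 0.393).

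Tnf (Entrez 21926, chromosome 17 at 35199367 to 35202007, minus strand), the inflammatory ligand of TNFR1 and TNFR2, was close to undetected. It had 4, 0, 2, 2 and 1 reads in crushed DLKi retina, 5, 5 and 0 in crushed vehicle retina, 3, 0, 0, 0 and 0 in uncrushed DLKi retina and 4, 0 and 0 in uncrushed vehicle retina. These are 26 reads in all, in 8 of 16 libraries. A count of 0 allows up to 3 reads, which is 0.036 to 0.0698 nRPKM depending on the library and covers counting error only. No difference in Tnf was detectable at this depth, and it was not tested.

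Tnfrsf12a, the receptor of TWEAK, has no death domain and signals through TRAF adaptors. It stood at 15.7, 19.8, 9.63, 12.7 and 11.9 nRPKM in crushed DLKi retina and at 22.2, 24.7 and 26.6 nRPKM in crushed vehicle retina. In uncrushed retina it stood at 3.14, 3.31, 3.25, 3.58 and 2.77 nRPKM with DLKi and at 4.02, 4.69 and 4.14 nRPKM with vehicle. The groups did not overlap in any of the 4 pairwise comparisons: every crushed retina was above every uncrushed one, and within each eye condition every DLKi retina was below every vehicle retina. Of all tested genes, 3.4% were higher and 3.3% lower without overlap after crush with DLKi, and 8.13% higher and 4.75% lower after crush with vehicle. Between the drugs, 4.68% were higher and 4.87% lower without overlap in crushed retina, and 5.24% higher and 4.31% lower in uncrushed retina.

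After crush Tnfrsf12a rose by 2.12 ± 0.15 with DLKi (1.80 to 2.45, 4.35-fold, adjusted p = 1.92e-07) and by 2.51 ± 0.20 with vehicle (2.09 to 2.93, 5.69-fold, adjusted p = 6.87e-07). Both calls held in all 22 alternative fits, at 1.96 to 2.23 with DLKi and 2.41 to 2.58 with vehicle. In crushed retina the gene averaged 13.9 ± 3.9 nRPKM with DLKi (SD, n = 5) and 24.5 ± 2.19 nRPKM with vehicle (SD, n = 3), a change of −0.81 ± 0.16 (−1.15 to −0.48, 0.57-fold, adjusted p = 0.0277). The direction held in all 22 alternatives (−0.97 to −0.70), but adjusted p ranged from 0.000476 to 0.182 and the call was lost in 8. It was lost without crushed vehicle retina 1 (0.0734), 2 (0.0893) or 3 (0.182), without crushed DLKi retina 4 (0.0544) or 5 (0.0653), without the shallowest vehicle pair (0.14), without the lens-rich libraries (0.0541) and in a fit of those 2 groups alone (0.0941).

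In the same comparison of crushed retinas, 3 of the 15 ganglion cell markers were higher with DLKi. Pou4f1 averaged 6.11 ± 1.11 nRPKM with DLKi (SD, n = 5) and 2.31 ± 0.916 nRPKM with vehicle (SD, n = 3), Pou4f2 2.58 ± 0.442 with DLKi and 0.982 ± 0.608 with vehicle, and Isl2 1.4 ± 0.0761 with DLKi and 0.535 ± 0.179 with vehicle. These transcription factors of ganglion cells differed by 1.39 ± 0.23 (adjusted p = 0.0108), 1.37 ± 0.27 (adjusted p = 0.0277) and 1.37 ± 0.19 (adjusted p = 0.0032). Of the 3 calls, that of Pou4f2 was lost without the shallowest vehicle pair (0.114) and without the lens-rich libraries (0.0519). The summed level of all 15 markers overlapped between these groups, at 1071 to 1299 CPM with DLKi and 802 to 1148 CPM with vehicle. Their part in the result for Tnfrsf12a was not tested.

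In uncrushed retina Tnfrsf12a averaged 3.21 ± 0.295 nRPKM with DLKi (SD, n = 5) and 4.29 ± 0.358 nRPKM with vehicle (SD, n = 3). That difference was not called (−0.42 ± 0.18, −0.81 to −0.04, adjusted p = 0.252). Crushed minus uncrushed means were 10.7 nRPKM with DLKi and 20.2 nRPKM with vehicle. On the log scale the crush effect with DLKi minus that with vehicle was −0.39 ± 0.25 (−0.91 to 0.13, adjusted p = 1), so a smaller fold induction under the inhibitor was not shown, and an equal one was not shown either. The comparisons share groups of libraries and are not independent of each other.

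**Figure D2:**
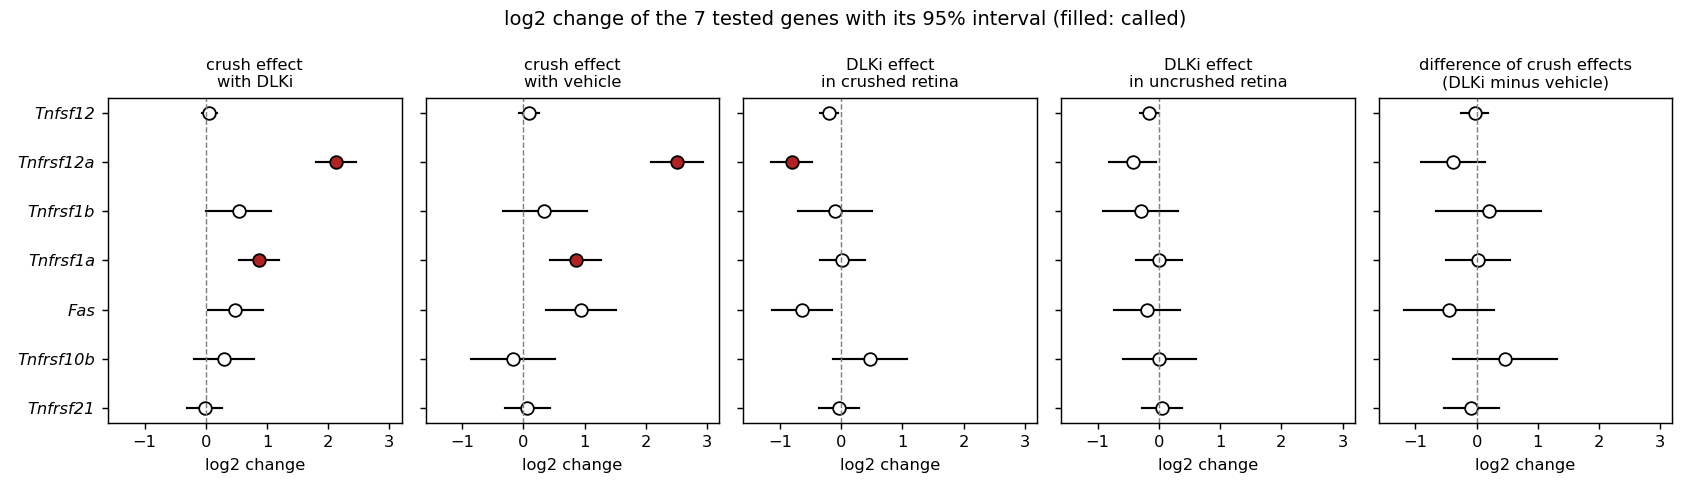
Log2 change of the 7 tested genes in the 5 contrasts, one panel each, with points at the edgeR estimate and bars for the 95% interval; filled points were called. Tnfrsf12a is filled in both crush panels and in the panel of DLKi in crushed retina, and Tnfrsf1a in both crush panels.

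Tnfrsf1b (Entrez 21938, chromosome 4 at 145212368 to 145246870, minus strand) encodes TNFR2, a receptor without a death domain that is found mainly on immune and endothelial cells. Its levels were 0.954, 0.922, 0.584, 0.811 and 0.49 nRPKM in crushed DLKi retina and 0.791, 0.868 and 0.756 nRPKM in crushed vehicle retina. They were 0.8, 0.371, 0.272, 0.418 and 0.752 nRPKM in uncrushed DLKi retina and 0.603, 0.631 and 0.669 nRPKM in uncrushed vehicle retina. With vehicle, all crushed retinas were above all uncrushed ones; with DLKi the groups overlapped, uncrushed retinas 1 and 5 standing among the crushed ones. The crush effect was 0.54 ± 0.25 with DLKi (0.01 to 1.07, adjusted p = 0.328) and 0.34 ± 0.32 with vehicle (−0.34 to 1.03, adjusted p = 0.891), and neither was called. Between the drugs the change was −0.10 ± 0.28 in crushed retina (−0.70 to 0.50, adjusted p = 0.903).

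Among the receptors with a death domain, Tnfrsf1a (Entrez 21937, chromosome 6 at 125349723 to 125362483, plus strand), which encodes TNFR1, had 9.52, 10.2, 6.43, 6.97 and 5.47 nRPKM in crushed DLKi retina and 8.17, 7.4 and 7.21 nRPKM in crushed vehicle retina. It had 5.36, 3.42, 3.73, 4.08 and 4.58 nRPKM in uncrushed DLKi retina and 4.17, 4.22 and 4.29 nRPKM in uncrushed vehicle retina. Crushed and uncrushed retinas did not overlap with either drug, although crushed DLKi retina 5 and uncrushed DLKi retina 1 were close, whereas the drugs overlapped in crushed and in uncrushed retina. Tnfrsf1a rose after crush by 0.87 ± 0.15 with DLKi (0.55 to 1.19, 1.83-fold, adjusted p = 0.00162) and by 0.85 ± 0.20 with vehicle (0.43 to 1.26, 1.8-fold, adjusted p = 0.0259). The call with DLKi held in all 22 alternatives (adjusted p up to 0.0239). The call with vehicle was lost in 8 of 22, at an unchanged direction (0.78 to 0.88, adjusted p from 0.00153 to 0.14). It was lost without crushed vehicle retina 1 (0.116), 2 (0.0654) or 3 (0.0509), without uncrushed vehicle retina 1 (0.0639), 2 (0.105) or 3 (0.0863), without the shallowest vehicle pair (0.112) and without the lens-rich libraries (0.14). Between the drugs it differed by 0.02 ± 0.17 in crushed retina (−0.34 to 0.39, adjusted p = 0.967), an interval from 0.789-fold to 1.31-fold, and the crush effects differed by 0.02 ± 0.25 (−0.50 to 0.55, adjusted p = 1).

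Fas (Entrez 14102, chromosome 19 at 34290647 to 34327775, plus strand), the CD95 receptor that recruits caspase-8 through FADD, was low, with 22 to 81 reads per library. Its levels were 0.762, 0.707, 0.58, 0.539 and 0.48 nRPKM in crushed DLKi retina and 0.819, 1.05 and 0.994 nRPKM in crushed vehicle retina. Uncrushed DLKi retina had 0.442, 0.264, 0.543, 0.337 and 0.629 nRPKM and uncrushed vehicle retina 0.47, 0.427 and 0.599 nRPKM. The 3 crushed vehicle retinas were thus the highest of all 16, above every uncrushed vehicle and every crushed DLKi retina, while crushed and uncrushed DLKi retinas overlapped. No difference was called: the crush effect was 0.48 ± 0.22 with DLKi (0.03 to 0.94, adjusted p = 0.297) and 0.94 ± 0.27 with vehicle (0.36 to 1.51, adjusted p = 0.0903). In crushed retina the change with DLKi was −0.64 ± 0.23 (−1.13 to −0.15, adjusted p = 0.238), and the crush effects differed by −0.45 ± 0.35 (−1.19 to 0.28, adjusted p = 1). DESeq2 alone among 22 alternatives called the crush effect with vehicle, at an adjusted p of 0.0481, the others reaching up to 0.354.

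Tnfrsf10b (Entrez 21933, chromosome 14 at 69767472 to 69784411, plus strand), the mouse TRAIL receptor DR5, was the lowest of the receptors. It averaged 0.284 ± 0.0817 nRPKM in crushed DLKi retina (n = 5), 0.205 ± 0.0352 in crushed vehicle retina (n = 3), 0.234 ± 0.0729 in uncrushed DLKi retina (n = 5) and 0.233 ± 0.0466 in uncrushed vehicle retina (n = 3, all SD). All groups overlapped. It had 19 to 47 reads per library, and the intervals ran from −0.20 to 0.79 for crush with DLKi (0.29 ± 0.24, adjusted p = 0.708), from −0.85 to 0.52 for crush with vehicle (−0.17 ± 0.32, adjusted p = 0.972) and from −0.13 to 1.07 for DLKi in crushed retina (0.47 ± 0.28, adjusted p = 0.486).

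Tnfrsf21 (Entrez 94185, chromosome 17 at 43016555 to 43089188, plus strand) encodes DR6, a death receptor known from neurons. It averaged 6.22 ± 0.725 nRPKM in crushed DLKi retina (n = 5), 6.35 ± 0.82 in crushed vehicle retina (n = 3), 6.34 ± 1.24 in uncrushed DLKi retina (n = 5) and 6.07 ± 1.33 in uncrushed vehicle retina (n = 3, all SD). All groups overlapped, and single retinas ran from 4.61 to 8.37 nRPKM, both extremes being uncrushed. The crush effect was −0.02 ± 0.13 with DLKi (−0.30 to 0.26, adjusted p = 0.975) and 0.06 ± 0.17 with vehicle (−0.30 to 0.43, adjusted p = 0.986).

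The order of the receptors by level differed between crushed and uncrushed retina. In crushed vehicle retina Tnfrsf12a (24.5 nRPKM) stood above Tnfrsf1a (7.6) and Tnfrsf21 (6.35), followed by Fas (0.956), Tnfrsf1b (0.805) and Tnfrsf10b (0.205); only Tnfrsf1a and Tnfrsf21, and Fas and Tnfrsf1b, overlapped between neighbours. In uncrushed vehicle retina Tnfrsf21 (6.07) had the highest mean, Tnfrsf12a (4.29) and Tnfrsf1a (4.23) overlapped each other, and Tnfrsf12a reached into the range of Tnfrsf21. Crushed DLKi retina had the order of crushed vehicle retina for the first 3, but Tnfrsf12a (9.63 to 19.8) overlapped Tnfrsf1a (5.47 to 10.2). There Tnfrsf1b (0.752) was above Fas (0.614), with overlap. In uncrushed DLKi retina Tnfrsf21 (6.34) stood above Tnfrsf1a (4.23) and Tnfrsf12a (3.21), with overlap between neighbours.

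The genes whose profiles over the 16 libraries were most like that of Tnfrsf12a were, in order, Atf3, Sox11, Bcl3, Lad1 and Tnnt2. Likeness was the root mean square difference of centred log2 CPM, which was 0.244 for Atf3, 0.311 for Sox11, 0.368 for Bcl3, 0.372 for Lad1 and 0.39 for Tnnt2, against a median of 1.2 over 13808 genes whose mean reached 1 CPM. Atf3, a transcription factor induced by axon injury, had 12.4, 10.7, 5.72, 9.11 and 7.02 nRPKM in crushed DLKi retina and 23.1, 21.6 and 20 nRPKM in crushed vehicle retina, without overlap. Its log2 change with DLKi in crushed retina was −1.26 (adjusted p = 0.00226). Sox11, a developmental transcription factor of neurons, had a change of −0.71 in the same comparison (adjusted p = 0.0872), Bcl3 −0.34 (adjusted p = 0.639), Lad1 −0.22 (adjusted p = 0.68) and Tnnt2 −0.40 (adjusted p = 0.323). Since they were chosen for this likeness over all 16 libraries, their changes with DLKi and with crush are given only as a description. Their adjusted p-values are not independent of that choice and give no support to the result for Tnfrsf12a. The log2 changes with crush lay between 1.66 and 2.96 with DLKi and between 2.01 and 3.09 with vehicle. Within the set, Tnfrsf1a came at rank 146 (0.797), Fas at 231 (0.867), Tnfrsf1b at 457 (0.991), Tnfsf12 at 1841 (1.13) and Tnfrsf21 at 5349 (1.18). A gene with the same level in every library would lie at 1.19, so Tnfsf12 and Tnfrsf21 were hardly nearer than a flat profile. Tnfrsf10b was not ranked, its mean over the libraries being below 1 CPM.

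**Figure D3:**
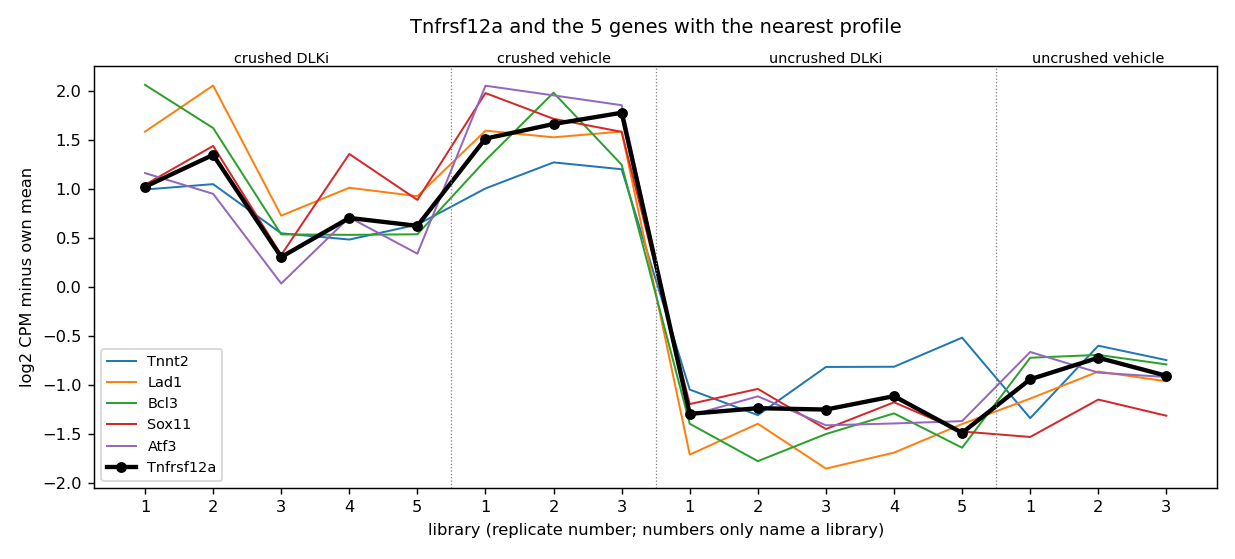
Centred log2 CPM of Tnfrsf12a and of the 5 genes with the most similar profile, by library and group. The 5 genes were chosen for this likeness, and every crushed library lies above every uncrushed one for all 6. For Tnfrsf12a, Atf3 and Sox11 the 3 crushed vehicle libraries lie above the 5 crushed DLKi ones.

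Other genes of the pathway were taken as 7 lists of 110 genes, of which 89 were tested. After crush with DLKi 7 rose and 1 fell, where 3.29% of all tested genes rose and 2.04% fell. With vehicle 5 rose and 1 fell, where 1.77% of all tested genes rose and 0.861% fell. The median log2 change over all tested genes was −0.001 for crush with DLKi and −0.003 for crush with vehicle.

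None of the other ligands or receptors was called in either crush comparison. Of 16 other TNF superfamily ligands, 10 were too low to be tested, and the 6 tested had median changes of 0.05 with DLKi and 0.13 with vehicle. Those with the smallest p for crush with DLKi were Tnfsf10, which encodes TRAIL (0.33 ± 0.22, adjusted p = 0.612), and Tnfsf9 (−0.20 ± 0.13, adjusted p = 0.62). The 18 tested of 22 other receptors had medians of 0.03 with DLKi and −0.04 with vehicle. Ltbr, the lymphotoxin beta receptor, changed by 0.42 ± 0.14 with DLKi (adjusted p = 0.114) and 0.44 with vehicle (adjusted p = 0.374), and Tnfrsf13b, the TACI receptor of B cells, changed by 1.03 ± 0.36 with DLKi (adjusted p = 0.125) at 0.0692 to 0.245 nRPKM in crushed DLKi retina and 0.0486 to 0.0919 nRPKM in uncrushed DLKi retina.

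None of the 18 adaptors, TRAFs and regulators was called (medians 0.04 with DLKi and 0.09 with vehicle). Ripk1, the kinase that joins TNFR1 to survival and death signalling, came closest at 0.30 ± 0.08 with DLKi (adjusted p = 0.0504). It was called without the shallowest vehicle pair (0.0231) but not without the lens-rich libraries (0.0978). Next came Spata2, which links the deubiquitinase CYLD to the TNFR1 complex (0.17 ± 0.08, adjusted p = 0.324). Of the 12 tested death pathway genes none was called after crush (medians 0.11 with DLKi and 0.13 with vehicle); Daxx, a Fas-binding protein, changed by 0.17 ± 0.05 with DLKi (adjusted p = 0.0653).

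Among 18 NF-kB kinases, subunits and inhibitors only Rela, the p65 subunit, was called. It rose by 0.24 ± 0.06 with DLKi (adjusted p = 0.0223) and by 0.30 ± 0.08 with vehicle (adjusted p = 0.0464), neither of which was stable. The call with DLKi was lost without crushed DLKi retina 1 or 4 and without uncrushed DLKi retina 1, 2 or 4 (adjusted p up to 0.0885). The call with vehicle was lost in 19 of 22 alternatives (up to 0.272), including the removal of every single library except uncrushed DLKi retina 5. Of 6 genes for the shedding of TNF and its receptors, Frmd8, a partner of the iRhom proteins, rose with DLKi (0.29 ± 0.08, adjusted p = 0.0441); with vehicle its change was 0.29 ± 0.11 (adjusted p = 0.232). Its call with DLKi was lost in 12 alternatives (up to 0.18): without crushed DLKi retina 1, 2, 4 or 5, crushed vehicle retina 2, uncrushed DLKi retina 1, 2, 3 or 4 or uncrushed vehicle retina 2, without the lens-rich libraries and with no filter on low counts.

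The calls after crush lay mainly among 16 genes known to respond to NF-kB, of which 11 were tested. This list, like the others, was chosen with earlier results of these data known. With DLKi 5 rose and 1 fell (median 0.45), where 3.29% of all tested genes rose and 2.04% fell. With vehicle 4 rose and 1 fell (median 0.49), where 1.77% of all tested genes rose and 0.861% fell. Without the shallowest vehicle pair 5 rose with DLKi and 2 with vehicle, and without the lens-rich libraries 3 rose with DLKi and 3 with vehicle. The count that fell with DLKi was 2 without the shallowest pair, where Cx3cl1, a chemokine of neurons named here after its values were seen, joined Mmp9 (−0.22 ± 0.05, adjusted p = 0.0127, against 0.483 with all libraries), and the count that fell with vehicle was 0 without the lens-rich libraries. The count that rose with vehicle was also 2 without crushed vehicle retina 1 or uncrushed vehicle retina 3. Bcl3, an atypical IkB protein, had the smallest crush p with DLKi: it rose by 2.75 ± 0.31 with DLKi (adjusted p = 2.49e-05) and 2.30 ± 0.38 with vehicle (adjusted p = 0.00176), at means of 2.2 nRPKM in crushed DLKi retina, 2.78 nRPKM in crushed vehicle retina, 0.327 nRPKM in uncrushed DLKi retina and 0.565 nRPKM in uncrushed vehicle retina. Csf1, a growth factor of microglia, rose by 0.91 ± 0.13 with DLKi (adjusted p = 0.000302) and 0.95 ± 0.17 with vehicle (adjusted p = 0.0041). The adhesion molecule Icam1 rose by 0.93 ± 0.18 with DLKi (adjusted p = 0.003) and 0.86 ± 0.22 with vehicle (adjusted p = 0.05), the call with vehicle being lost in 17 alternatives (up to 0.273), including the removal of any single library other than crushed DLKi retina 1 or 4 or uncrushed DLKi retina 5.

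The matrix protease Mmp9 went the other way. It averaged 4.09 nRPKM in crushed DLKi retina, 3.39 nRPKM in crushed vehicle retina, 7.98 nRPKM in uncrushed DLKi retina and 6.02 nRPKM in uncrushed vehicle retina, and fell by 0.96 on the log2 scale with DLKi (−0.96 ± 0.13, adjusted p = 0.000136) and by 0.83 with vehicle (−0.83 ± 0.17, adjusted p = 0.00893). The call with vehicle was lost without uncrushed vehicle retina 2 (0.0559) or 3 (0.058), without the lens-rich libraries (0.0629) and in a fit of those 2 groups alone (0.13). The remaining calls were those of Vcam1, another adhesion molecule, with DLKi (0.52 ± 0.11, adjusted p = 0.0072), and of Ccl2, a monocyte chemokine, with DLKi (2.61 ± 0.61, adjusted p = 0.0145) and vehicle (3.55 ± 0.72, adjusted p = 0.00881). Ccl2 was low, at means of 0.196 nRPKM in crushed DLKi and 0.429 nRPKM in crushed vehicle retina, and had no reads in 2 uncrushed DLKi retinas and 1 uncrushed vehicle retina. Vcam1 lost its call without the lens-rich libraries (0.091), as did Ccl2 with DLKi (0.0994), which was also lost without crushed DLKi retina 2 (0.0506). With vehicle the call of Ccl2 was lost without crushed vehicle retina 1 (0.0593), uncrushed vehicle retina 3 (0.0556) or the shallowest vehicle pair (0.0503).

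**Figure D4:**
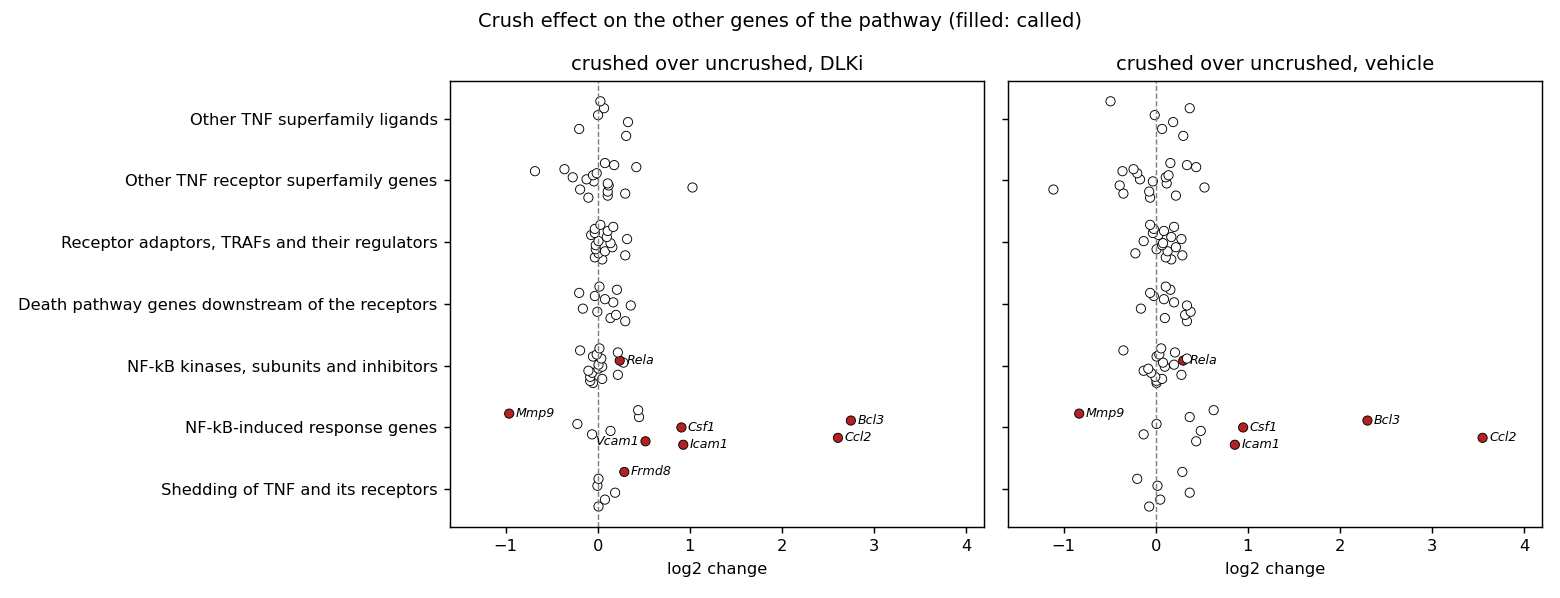
Log2 crush effect of the 89 tested pathway genes by list, with DLKi on the left and vehicle on the right; each point is a gene and filled, named points were called. Calls lie mainly in the NF-kB response list, where Mmp9 is on the negative side and Bcl3, Ccl2, Csf1 and Icam1 on the positive side in both panels.

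Microglia markers rose with crush as well. Of 15 markers, 13 rose with DLKi and 7 with vehicle, none was at 0, and none was called between the drugs in crushed retina. With vehicle 1 rose without the shallowest pair and 3 without the lens-rich libraries, and with DLKi 13 and 9. Their sum was 203, 192, 129, 158 and 115 CPM in crushed DLKi retina, 162, 165 and 140 CPM in crushed vehicle retina, 79.4 to 111 CPM in uncrushed DLKi retina and 98.8 to 99.7 CPM in uncrushed vehicle retina. Within crushed DLKi retina, retinas 1 and 2 were the highest for this sum and for Tnfrsf1a, Tnfrsf1b, Tnfrsf12a and Bcl3. Retina 5 was the lowest for the sum, Tnfrsf1a and Tnfrsf1b. Fas, Ltbr and the sum of the reactive gliosis genes below were also highest in retinas 1 and 2 and lowest in 5. Not every marker sum had retinas 1 and 2 highest: that of the endothelial markers was 376, 436, 350, 408 and 341 CPM in crushed DLKi retinas 1 to 5. What set the order was not tested. Crushed DLKi retina 5, with a microglia marker sum of 115 CPM and 5.47 nRPKM of Tnfrsf1a, stood next to uncrushed DLKi retina 1, with 111 CPM and 5.36 nRPKM. The part of the microglia markers in these results was not tested. For Tnfrsf12a the libraries with the highest levels were the 3 crushed vehicle retinas, whose marker sums lay below those of crushed DLKi retinas 1 and 2. Reactive gliosis genes also moved, 10 of 11 rising with DLKi and 9 with vehicle (6 without the shallowest pair), with sums of 554 to 1017 CPM in crushed DLKi retina, 758 to 833 CPM in crushed vehicle retina, 292 to 392 CPM in uncrushed DLKi retina and 310 to 367 CPM in uncrushed vehicle retina; their part was not tested either. Markers of infiltrating leukocytes summed to 1.08 to 2.44 CPM over all libraries.

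**Figure D5:**
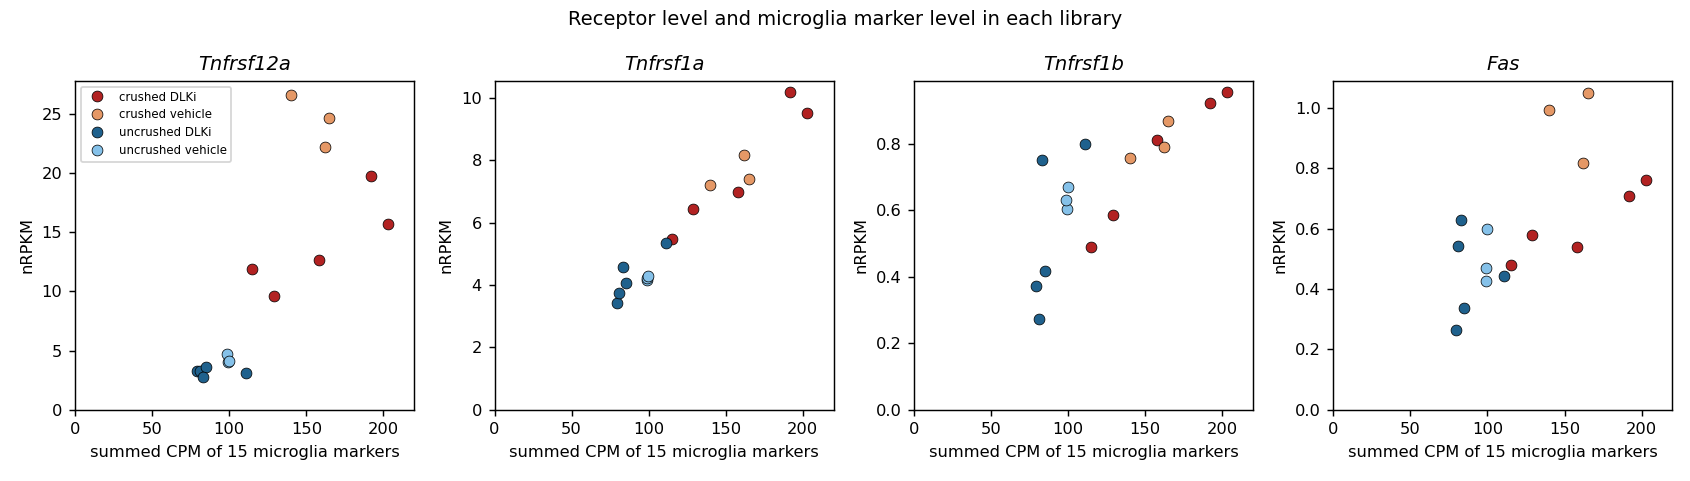
Level of Tnfrsf12a, Tnfrsf1a, Tnfrsf1b and Fas (nRPKM) against the summed level of 15 microglia and macrophage markers (CPM) in each of the 16 libraries, coloured by group. Crushed DLKi retinas 1 and 2 have the highest marker sums (203 and 192 CPM) and the highest Tnfrsf1a and Tnfrsf1b. Tnfrsf12a and Fas are highest in the 3 crushed vehicle retinas (140 to 165 CPM). Within crushed DLKi retina, Tnfrsf12a and Fas are also highest in retinas 1 and 2. Retinas 3, 4 and 5 of that group have sums of 129, 158 and 115 CPM.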

How the data were processed

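Per the labels' protocols, poly(A) libraries were made from 0.5 µg of total RNA with a TruSeq kit that does not mark strand and were sequenced as single reads of 50 bases. GSNAP and GRCm38 are named in the submitters' processing notes; for its version, settings and annotation, nothing was given in the sources used here. The authors deposited, per the file headers, whole-number counts of uniquely aligned reads per Entrez identifier, and nRPKM, which is RPKM with a further size factor per library, of unstated origin. Unique alignment lowers the counts of genes that share sequence. Tests used counts, and levels are nRPKM.

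Of 36528 identifiers, 31049 matched a RefSeq symbol; those without one held 1.1% to 1.22% of counts. Depth was 22.4 to 44.7 M counts per library. No libraries were copies, as replicates differed by a chi-square of 6.73 to 42.8 per degree of freedom.

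All 16 libraries were fitted together with edgeR 4.0.16 in R 4.3.3 (TMM factors 0.973 to 1.02, filterByExpr, quasi-likelihood F test, a mean per group, no covariate), which left 12 residual and 5.27 prior degrees of freedom. Benjamini-Hochberg adjustment ran over 19391 genes, and 5 contrasts were tested. The script was tested on simulated data. Replicates were numbered in accession order, which pairs nothing.

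The 8 genes and the lists were chosen with earlier results of these data known. Named from each list were up to 4 called genes with the smallest p for crush with DLKi, or up to 2 uncalled ones where none was called, every list gene called between the drugs (such a result is not reported here), and the 5 profiles most like Tnfrsf12a (log2 CPM with prior count 0.5, genes whose mean reached 1 CPM). Alternatives were DESeq2 1.42.0, its size factors, no filter, only the groups compared, each library left out, and the shallowest vehicle pair or the 3 lens-rich libraries left out.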

Additional observations from a re-analysis of the deposited data

How the results depend on the processing

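The number of the 8 genes called for crush with vehicle was 2 and ranged from 1 to 2 when each library was left out. It was 1 without the shallowest vehicle pair, 1 without the 3 lens-rich libraries and 3 with DESeq2, which added Fas. For DLKi in crushed retina it was 1 and ranged from 0 to 1 when each library was left out, with 0 in a fit of only those groups, 0 without the shallowest pair and 0 without the lens-rich libraries. The numbers for the other 3 contrasts kept to within 1.5 times in the alternatives run. Fewer libraries leave fewer degrees of freedom in these fits, but why calls were lost was not tested. Changes of sign occurred only for differences that were never called. When each library was left out, Tnfrsf21 ranged from −0.09 to 0.10 for crush with DLKi, −0.10 to 0.20 for crush with vehicle, −0.11 to 0.08 and −0.10 to 0.19 for DLKi in crushed and uncrushed retina, and −0.22 to 0.07 for the difference of crush effects. Tnfrsf1a ranged from −0.10 to 0.13 and −0.10 to 0.06 for DLKi in crushed and uncrushed retina and from −0.10 to 0.14 for the difference. Tnfrsf1b ranged from −0.20 to 0.03 for DLKi in crushed retina, Tnfrsf10b from −0.17 to 0.13 for DLKi in uncrushed retina, and Tnfsf12 from −0.11 to 0.02 for the difference. Without the shallowest pair Tnfrsf21 was −0.08 for crush with vehicle, −0.10 for DLKi in uncrushed retina and 0.05 for the difference, and Tnfrsf1a was −0.01 for DLKi in crushed retina. Without the lens-rich libraries the values in uncrushed retina were 0.004 for Tnfrsf1a and −0.15 for Tnfrsf10b, and the differences of crush effects were 0.01 for Tnfsf12 and 0.02 for Fas. With no filter on low counts Tnfrsf1a was 0.01 in uncrushed retina, and with only those groups Tnfrsf10b was −0.001. No paired analysis was run, because the labels give no replicate numbers and do not tie retinas to mice. Serial sample numbers in the titles place crushed and uncrushed retinas with the same drug side by side. They are not stated to mark a mouse and were not used. Depth limits Tnf, which did not pass the filter.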
